A study of Mus musculus with 96 samples.

Results

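The comparison described here is of whole striatal RNA from R6/2 mice and from their NCAR controls at 2 months of age. Its members are the libraries whose label gives input RNA, genotype R6/2 or NCAR and that age, 4 of each genotype, 8 of the 96 libraries of the series. R6/2 is a transgenic mouse model of Huntington's disease that carries a fragment of the human huntingtin gene with an expanded CAG repeat in addition to its own Htt genes. The labels do not spell out NCAR, which the study's design names as the control of R6/2. Both groups were on a CBA x C57BL/6 strain, and both had received an adeno-associated virus in the striatum, so that the injection is shared by controls and R6/2 mice. The labels name no virus cargo, no sex and no tie between libraries, and do not state whether each library is 1 mouse, so that p-values measure only the spread between these libraries. Input is the RNA of the whole tissue before an immunoprecipitation (IP), and the IP RNA of the same age is set beside it at the end.

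The striatum is made up mostly of medium spiny neurons, GABA neurons that receive dopamine from the midbrain and glutamate from the cortex. Direct pathway cells carry the D1 dopamine receptor, which raises cAMP, and indirect pathway cells carry the D2 dopamine receptor and an adenosine receptor. A set of proteins that turn these inputs into cAMP, protein kinase A and calcium signals is dense in these neurons, and loss of their RNAs is a known feature of Huntington's disease models. In bulk tissue such as this, fewer cells of a type and less RNA per cell cannot be told apart.

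The 8 libraries held 31.03 to 51.19 M reads recovered from the deposited values. The labelled tissue was borne out by its markers: all 26 medium spiny neuron genes shared by both pathways were measured, and their summed level was 30174 to 34747 CPM (reads of a gene scaled to the size of its library) in NCAR libraries. Of 5 blood genes only Alas2 passed the filter on low reads, at a mean of 2.69 CPM in NCAR and 1.62 CPM in R6/2. It was called lower in R6/2 by limma (log2 difference -0.73, adjusted p = 0.0364). That call was lost in 8 alternative settings (adjusted p up to 0.113). Replicates 1 and 3 of either genotype had higher summed pan-neuronal levels (9889 to 11739 CPM) than replicates 2 and 4 (7242 to 8810 CPM), a split that was balanced between genotypes; the numbers follow the order of the labels and carry no pairing. The summed level of 21 interferon response genes ran from 160 CPM in NCAR replicate 1 to 865 CPM in NCAR replicate 4. The 50 most abundant genes took 9.89% to 10.6% of the reads in NCAR libraries and 8.48% to 8.68% in R6/2 libraries.

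Mouse Htt, the gene whose human copy is mutated in the disease, was at 268, 266, 235 and 324 CPM in the 4 NCAR libraries and at 223, 245, 224 and 232 CPM in the 4 R6/2 libraries. The ranges overlapped, and the log2 difference of -0.23 (SE 0.10) was not called by limma (adjusted p = 0.152). It was called in 1 alternative setting, at the same size of -0.23 (limma, adjusted p = 0.0406). Reads were aligned to the mouse genome, so the human transgene itself was not measured. The predicted gene Gm12695 (chr4:96723647-96785186, mm10, minus strand), singled out after its values were seen, was near 0 in one genotype only. It was at 0, 0.172, 0.0894 and 0.0207 CPM in NCAR libraries and at 5.48, 4.30, 6.00 and 4.75 CPM in R6/2 libraries (adjusted p = 0.00101). Every R6/2 library was far above every NCAR library, and no fold is given because the control level rests on a few reads.

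Of 15358 genes tested, 2455 were called between R6/2 and NCAR at an adjusted p under 0.05 (limma with Benjamini-Hochberg adjustment), which is 16.0%. Of these, 972 were higher in R6/2 (6.33% of all genes tested) and 1483 were lower (9.66%). The count of higher genes was 488 without R6/2 replicate 1, 576 and 542 without NCAR replicate 2 or 4, and 590 and 533 without R6/2 replicate 2 or 4. With the mean pan-neuronal log2 level as a covariate, an alternative chosen after seeing the data, 2697 genes were higher and 2620 lower. This covariate was centred within each genotype, so it removed spread within groups and did not adjust the genotype difference for neuronal level. The lower genes had a median size of 0.73 on the log2 scale with 442 past 2-fold, and the higher genes a median of 0.58 with 151 past 2-fold. The lower genes also started from higher levels. Summed over all of them, the mean NCAR level was 301816 CPM and the mean R6/2 level 178952 CPM, whereas the higher genes together went from 37816 to 53310 CPM. The lower genes covered longer stretches of the genome, with a median span of 44.2 kb against 24.5 kb for all genes tested and 19.3 kb for the higher genes; 96.2% or more of the called genes matched 1 GENCODE gene by symbol.

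The split between higher and lower genes depends on how the libraries are scaled. With trimmed-mean scaling 39.6% of the called genes were higher; with read totals alone, an alternative chosen after seeing the data, 2823 of 3880 called genes, or 72.8%, were higher and 1057 were lower. The median difference over all genes was 0.03 with trimmed-mean scaling and 0.19 with read totals alone, a shift of all genes. The median sizes of the same called genes were then 0.57 for the lower and 0.75 for the higher, with 304 and 230 past 2-fold, so that the order of the medians depends on the scaling. The counts of lower medium spiny neuron genes (22), immediate early genes (17) and calcium genes (17) were the same under both scalings. Other lists had fewer lower genes with read totals alone. Potassium and sodium channel genes went from 22 to 18, cyclase and phosphodiesterase genes from 9 to 7 and myelin genes from 6 to 5.

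**Figure D1:**
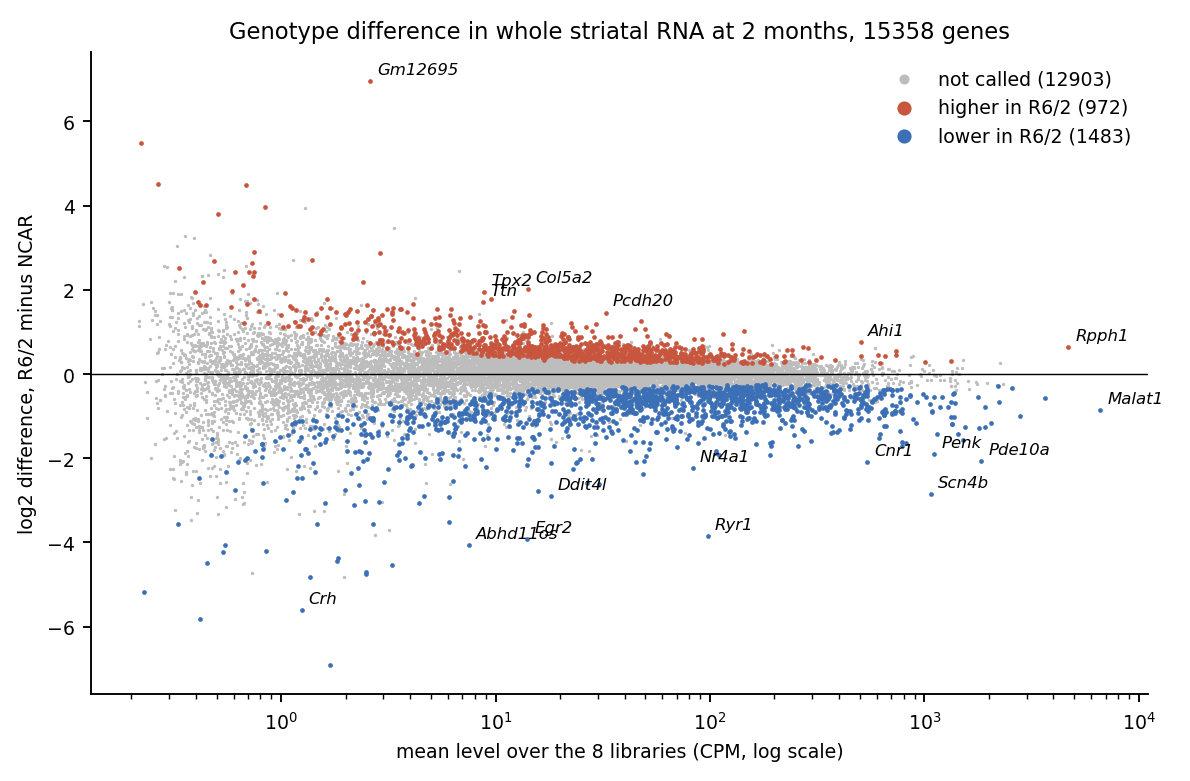
Each point is 1 of 15358 genes, with its mean level over the 8 libraries on the x axis (CPM, log scale) and the log2 difference R6/2 minus NCAR on the y axis; coloured genes are the 972 called higher and the 1483 called lower. The lower genes reach larger sizes at high levels, with Scn4b, Pde10a and Ryr1 far below 0 and no higher gene of like level as far above it.

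Among called genes that averaged 5 CPM or more and whose genotypes did not overlap (3494 of all genes tested, 22.8%, had no overlap), the 15 with the lowest log2 differences were 4.54-fold to 16.7-fold lower in R6/2. Ryr1 (chr7:29003344-29125179, minus strand), which codes for the calcium release channel best known from the store of skeletal muscle, was at 206, 198, 140 and 186 CPM in NCAR and at 12.0, 13.8, 13.0 and 11.8 CPM in R6/2. The R6/2 libraries lay within 2 CPM of each other and the groups were 14.3-fold apart (log2 difference -3.84, SE 0.13, adjusted p = 9.61e-07). Scn4b (chr9:45138395-45154152, plus strand), the beta-4 subunit of voltage-gated sodium channels, was at 1587, 2133, 1671 and 2118 CPM in NCAR. It was at 206, 324, 226 and 291 CPM in R6/2, 7.24-fold lower with no overlap (log2 difference -2.86, SE 0.16, adjusted p = 1.60e-05). Abhd11os (chr5:135012114-135013253, minus strand), annotated as a transcribed pseudogene beside Abhd11, was at 14.8, 14.6, 13.8 and 13.2 CPM in NCAR and at 1.06, 0.891, 0.698 and 0.750 CPM in R6/2. It had the lowest log2 difference of the 15 (-4.06, SE 0.18, adjusted p = 7.99e-06), while Abhd11 on the opposite strand, singled out as its neighbour, differed by -0.05 (adjusted p = 0.767).

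The rest of these 15 came from several gene classes. Kcnh4, a potassium channel gene, went from a mean of 38.0 ± 6.46 CPM (SD, n = 4) in NCAR to 7.92 ± 1.56 in R6/2, and Ddit4l, an inhibitor of mTOR signalling, from 31.8 ± 2.07 to 4.42 ± 1.53. Abi3bp, an extracellular matrix protein gene, fell by 3.52 on the log2 scale, and Phex, a peptidase gene known from bone, fell by 2.91. The orphan receptor gene Gpr139 fell by 2.53 and Cd4, the T-cell co-receptor gene, fell by 2.39 from a mean of 81.4 CPM. Ptpn7 and Ptprv, a pair of tyrosine phosphatase genes that lie next to each other on chromosome 1 on opposite strands, fell by 2.78 and 2.60; how the counting treated strand is not given in the sources used here. Ankrd35 fell by 2.20 with 4 NCAR libraries between 13.9 and 16.8 CPM and 4 R6/2 libraries between 2.58 and 3.62 CPM. The other 3, Egr2, Nr4a1 and Nr4a3, are immediate early genes and are described with that list.

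The largest losses in level were of abundant RNAs. Malat1 (chr19:5795690-5802672, minus strand), a nuclear noncoding RNA, was at 9786, 8272, 7844 and 8079 CPM in NCAR and at 4081, 4312, 6128 and 4320 CPM in R6/2. R6/2 replicate 3 lay above the other R6/2 libraries and still below every NCAR library (log2 difference -0.87, SE 0.14, adjusted p = 0.00276). Pde10a, Ppp3ca, Scn4b, Prkcb and Atp2b1 followed. Ppp3ca, the catalytic subunit of the calcium-dependent phosphatase calcineurin, went from 3723 ± 271 to 1885 ± 198 CPM. Prkcb, a calcium-dependent protein kinase C, went from 2830 ± 435 to 1262 ± 256 CPM, and Atp2b1, a calcium pump of the plasma membrane, from 2700 ± 425 to 1141 ± 272 CPM.

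The 15 highest genes were 2.45-fold to 4.04-fold higher, most of them at low levels. Col5a2 (chr1:45374321-45503282, minus strand), a chain of type V collagen, was at 1.38, 8.47, 9.09 and 7.46 CPM in NCAR and at 24.2, 17.6, 19.5 and 25.7 CPM in R6/2. NCAR replicate 1 was far below the other controls, and without it the difference was 1.37, or 2.58-fold (adjusted p = 0.00153). The difference of 2.02 over all libraries (SE 0.53, adjusted p = 0.0294) was not called when R6/2 replicate 1, 2 or 4 was left out (adjusted p = 0.0809, 0.0519 and 0.0744). Tpx2 (chr2:152847964-152895321, plus strand), a spindle assembly factor of dividing cells, was at 3.25, 3.34, 4.20 and 3.14 CPM in NCAR and at 17.6, 9.18, 19.9 and 10.1 CPM in R6/2 (log2 difference 1.95, SE 0.26, adjusted p = 0.00106). Its R6/2 values fell into a high and a low pair, replicates 1 and 3 above 2 and 4, the same pairs as in the pan-neuronal sums.

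Ttn, which codes for the giant muscle protein titin, went from 4.11 ± 1.10 to 13.4 ± 3.08 CPM, and Sfmbt2, a polycomb group gene, from 6.38 ± 0.758 to 18.0 ± 2.65 CPM. Pcdh20, a protocadherin gene, was at 14.1, 21.3, 20.5 and 14.3 CPM in NCAR and at 49.5, 57.5, 42.6 and 41.2 CPM in R6/2, the highest level among these 15. The cell cycle inhibitor gene Cdkn1c rose by 1.32 on the log2 scale, the co-chaperone gene Bag2 by 1.36, the ADP-ribose hydrolase gene Macrod1 by 1.40, and the cilium gene Cys1 by 1.54. The others were AW551984 (1.78), Dleu7 (1.55), Fam196b (1.40), Vill (1.35), Lrriq1 (1.33) and Echdc2 (1.29), all on the log2 scale. The largest gains in level were Rpph1, the RNA of ribonuclease P, from 3631 ± 317 to 5744 ± 1297 CPM, then Gpm6a, Chd3, Ahi1, Eif4a2 and Serinc1. Chd3, a chromatin remodeller gene, went from 600 ± 79.5 to 878 ± 108 CPM, Ahi1, a cilium gene, from 378 ± 61.0 to 637 ± 105 CPM, and Eif4a2, a translation initiation helicase gene, from 621 ± 15.5 to 854 ± 66.4 CPM. The calls of Rpph1, Gpm6a and Serinc1 were lost when any 1 of 5, 6 and 4 libraries was left out, with adjusted p up to 0.0607, 0.1004 and 0.0790.

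**Figure D2:**
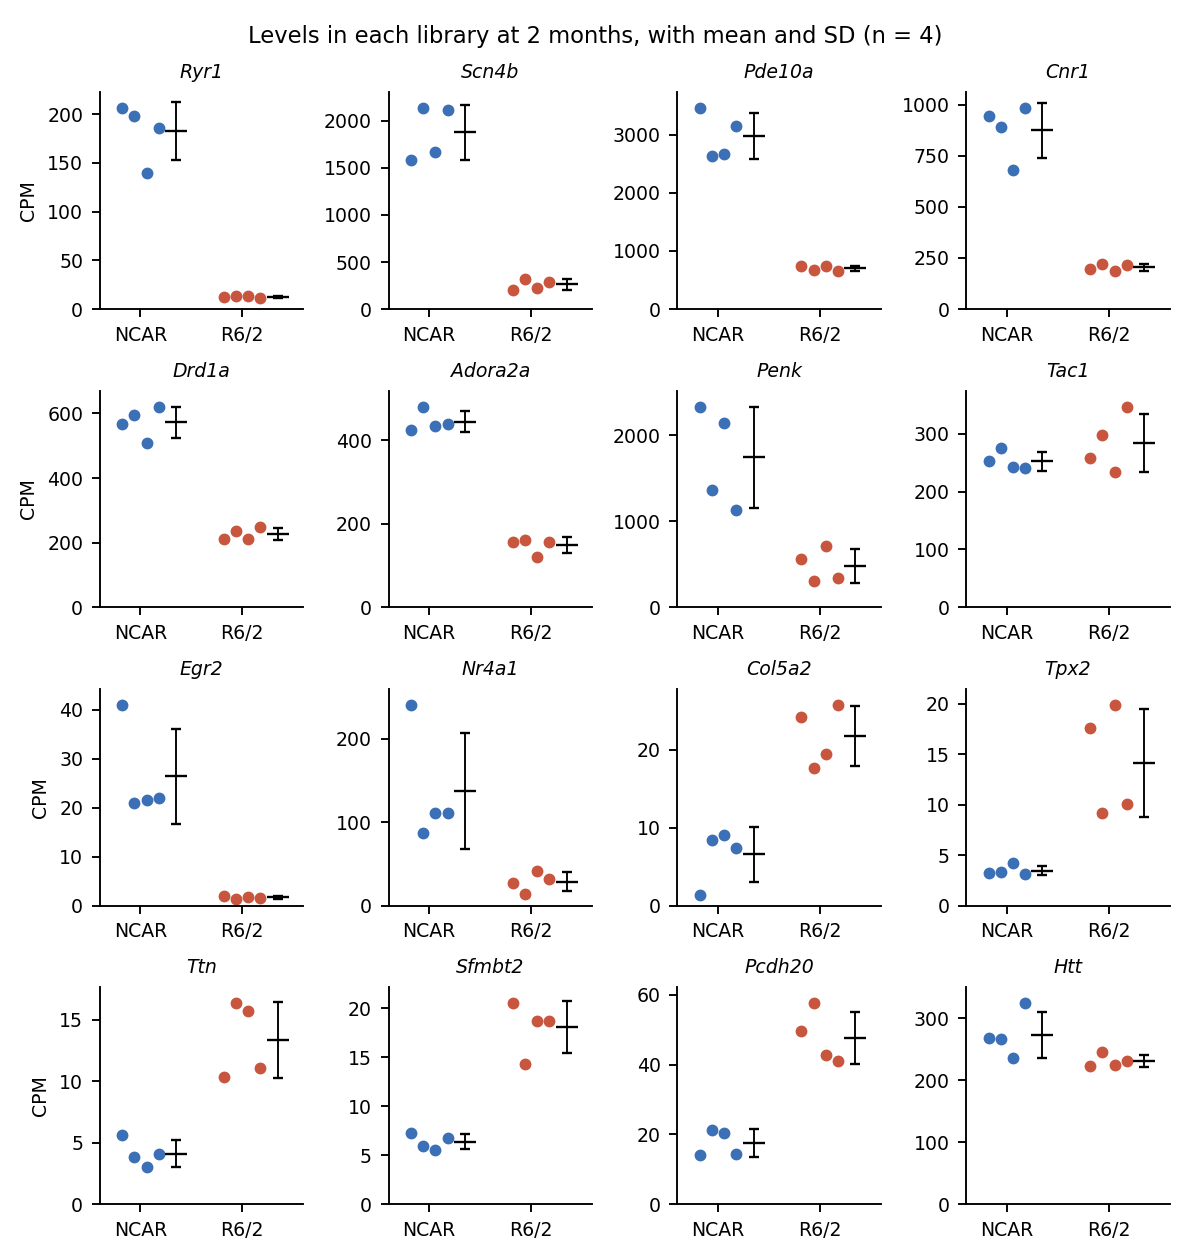
Level of 16 genes in each of the 4 NCAR and 4 R6/2 libraries (dots, CPM, y axes from 0), with the mean and SD of each group beside them in black. In the 9 genes lower in R6/2 among Ryr1 to Nr4a1 and in the 5 higher genes the groups do not overlap, whereas Tac1 and Htt overlap.

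The genes that define medium spiny neurons were lower as a group. Counts in this list and the lists below are read against 9.66% of all genes tested called lower and 6.33% called higher. Of 26 genes shared by both pathways, 22 were called lower and none higher, with a median log2 difference of -1.11 beside 0.03 over all genes tested, and their summed level was 12456 to 14462 CPM in R6/2. Pde10a (chr17:8525372-8986648, plus strand), a phosphodiesterase that breaks down cAMP and cGMP, was at 3449, 2634, 2659 and 3154 CPM in NCAR and at 736, 677, 746 and 659 CPM in R6/2. The R6/2 libraries were close together and 4.20-fold below NCAR (log2 difference -2.07, SE 0.10, adjusted p = 1.18e-05). Rasgrp2, an activator of the small GTPase Rap1, went from 289 ± 9.02 to 92.6 ± 8.70 CPM, and Rasd2, the small GTPase known as Rhes, from 1104 ± 73.0 to 435 ± 21.6 CPM. The 4 members that were not called were Gnal, Foxp1, Meis2 and Dclk3, with log2 differences of -0.54, -0.61, -0.34 and -0.47. The count of lower members was 22 to 25 with any 1 library left out and 22 with read totals alone.

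Direct pathway genes did not move together. Drd1a, the D1 dopamine receptor gene, was at 566, 595, 508 and 621 CPM in NCAR and at 210, 237, 211 and 249 CPM in R6/2, with no overlap (log2 difference -1.34, SE 0.09, adjusted p = 4.37e-05). Tac1, the precursor gene of substance P and also made in direct pathway cells, was at 252, 275, 242 and 240 CPM in NCAR and at 257, 298, 234 and 346 CPM in R6/2. These ranges overlapped and Tac1 was not called (log2 difference 0.16, SE 0.12, adjusted p = 0.429). Pdyn, the prodynorphin gene, fell by 0.96 and the M4 muscarinic receptor gene Chrm4 fell by 1.53. In all, 4 of 10 members tested were lower and 1, the transcription factor gene Isl1, was higher, by 0.53 (adjusted p = 0.0292). The calls of Isl1 and of the fourth lower member, Slc35d3 (-0.41), were each lost when any 1 of 6 libraries was left out, with adjusted p up to 0.0794 and 0.0679, and that of Slc35d3 also with read totals alone (0.0744).

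Indirect pathway genes were lower in 6 of 9 cases and higher in none, with a median of -1.17. Penk, the proenkephalin gene (chr4:4133531-4138819, minus strand), was at 2334, 1363, 2146 and 1136 CPM in NCAR and at 566, 302, 712 and 337 CPM in R6/2. The spread was wide in both groups, with replicates 1 and 3 above replicates 2 and 4, and the groups still did not overlap (log2 difference -1.89, SE 0.31, adjusted p = 0.00317). Adora2a, the adenosine receptor gene of these cells, fell by 1.59, the D2 receptor gene Drd2 by 1.38 and the orphan receptor gene Gpr6 by 1.17.

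Interneuron genes were lower in 6 of 15 cases and higher in none, beside 9.66% and 6.33% of all genes tested. The 4 with the smallest p were 3 cholinergic genes and Nos1, the neuronal nitric oxide synthase gene. Chat, the enzyme of acetylcholine synthesis, was at 41.3, 40.2, 33.1 and 34.8 CPM in NCAR and at 14.9, 16.5, 17.3 and 13.8 CPM in R6/2, without overlap (log2 difference -1.26, SE 0.12, adjusted p = 1.65e-04). Slc5a7, the choline transporter gene, fell by 1.28, Slc18a3, the vesicular acetylcholine transporter gene that lies within the Chat locus, by 1.39, and Nos1 by 1.26. Pan-neuronal genes moved less: 7 of 24 were lower, among them the synaptic scaffold gene Dlg4 (-0.68) and the neuronal enolase gene Eno2 (-0.52), and 1 was higher, Stmn2, a regulator of microtubules in growing axons (0.66), not called without NCAR replicate 4 or R6/2 replicate 1 (adjusted p = 0.0522 and 0.0584). Their median was -0.22. With read totals alone 6 were higher and 6 lower, with a median of -0.06. The count of lower pan-neuronal genes was 3 without NCAR replicate 1, NCAR replicate 3, R6/2 replicate 2 or R6/2 replicate 4, and 4 without NCAR replicate 4.

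Called genes of dopamine and cAMP signalling were mostly lower, among the receptors and further along. The median difference was -1.17 for receptors, -0.56 for G proteins and their regulators, -0.46 for cyclases and phosphodiesterases, and -0.36 for kinases and substrates. Of 17 receptor genes of the dopamine and cAMP lists, 14 were lower and 1, the serotonin receptor gene Htr2c (0.73), was higher. Cnr1, the cannabinoid CB1 receptor gene (chr4:33924593-33948831, plus strand), was at 948, 892, 679 and 983 CPM in NCAR and at 198, 221, 184 and 218 CPM in R6/2. The groups did not overlap and the log2 difference of -2.08 (SE 0.12, adjusted p = 1.60e-05) was called. The delta opioid receptor gene Oprd1 fell by 1.44.

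Among 16 G protein genes and their regulators 8 were lower and 1, the inhibitory alpha subunit gene Gnai1 (0.37), was higher. The 3 regulators of G protein signalling with the smallest p, Rgs14, Rgs4 and Rgs9, fell by 1.78, 1.72 and 1.51. Of 14 cyclase and phosphodiesterase genes 9 were lower and 1 higher. Adcy5, the adenylyl cyclase of striatal neurons, went from 2257 ± 218 to 762 ± 114 CPM, and the calcium-activated phosphodiesterase gene Pde1b from 2171 ± 128 to 914 ± 71.5 CPM. Of 17 kinase and substrate genes 9 were lower and 1 higher. The higher one was Prkar1b (0.30), a regulatory subunit of protein kinase A, and none of the other subunit genes listed was called. Ppp1r1b, which codes for the protein kinase A substrate DARPP-32, went from 1666 ± 207 to 620 ± 94.7 CPM. Arpp19 and Arpp21, a pair of cAMP-regulated phosphoprotein genes, fell by 1.43 and 1.42.

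Of 27 genes of calcium channels, stores and sensors, 17 were lower and none higher, beside 9.66% and 6.33% of all genes tested. The median of the list was -0.73. Beside Ryr1, the inositol trisphosphate receptor gene Itpr1 went from 2546 ± 234 to 1049 ± 30.1 CPM, and the calcium sensor gene Hpca fell by 1.03. The calcium channel subunit gene Cacna2d3 had NCAR libraries between 433 and 466 CPM and R6/2 libraries between 206 and 230 CPM. Of 30 potassium and sodium channel genes 22 were lower and 1, the inward rectifier gene Kcnj3 (0.55), was higher. With read totals alone 18 were lower and 2 higher. Kcnip2, a subunit of A-type potassium channels, went from 394 ± 11.6 to 156 ± 9.77 CPM, and Kcnab1 fell by 1.10.

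Receptors for the main transmitters are read against 9.66% of all genes tested called lower and 6.33% called higher. Of 21 glutamate receptor genes 10 were lower and none higher. The metabotropic receptor genes Grm4 and Grm5 fell by 1.08 and 0.77, and the kainate receptor gene Grik2 fell by 1.00. Of 14 GABA receptor genes 2 were lower and 1 higher, near these shares, with a median of 0.03. Gabrd, the delta subunit of extrasynaptic receptors, was at 159, 201, 167 and 185 CPM in NCAR and at 68.4, 79.7, 50.8 and 82.9 CPM in R6/2 (log2 difference -1.36, SE 0.15, adjusted p = 4.41e-04). Gabra4 fell by 0.44, a difference not called with read totals alone (adjusted p = 0.0601), and Gabra5 rose by 0.64.

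Of 19 neuropeptide and granin genes 7 were lower and none higher, beside 9.66% and 6.33% of all genes tested. Crh, the gene of corticotropin releasing hormone, was at 2.47, 2.91, 2.35 and 2.04 CPM in NCAR. It was at 0.0278, 0.0713, 0.0635 and 0.0278 CPM in R6/2 (limma, adjusted p = 1.26e-04). The R6/2 level rests on a few reads per library, so no fold is given. In the endocannabinoid list 2 of 10 were lower, Cnr1 and the synthesis enzyme gene Dagla (-0.87), and 2 were higher, the degrading enzyme gene Faah (0.76) and the CB1 receptor interacting protein gene Cnrip1 (0.71). Of 20 striatal transcription factor genes 6 were lower and 2 higher; Foxo1, Rxrg and the retinoic acid receptor gene Rarb fell by 1.17, 1.11 and 0.76.

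**Figure D3:**
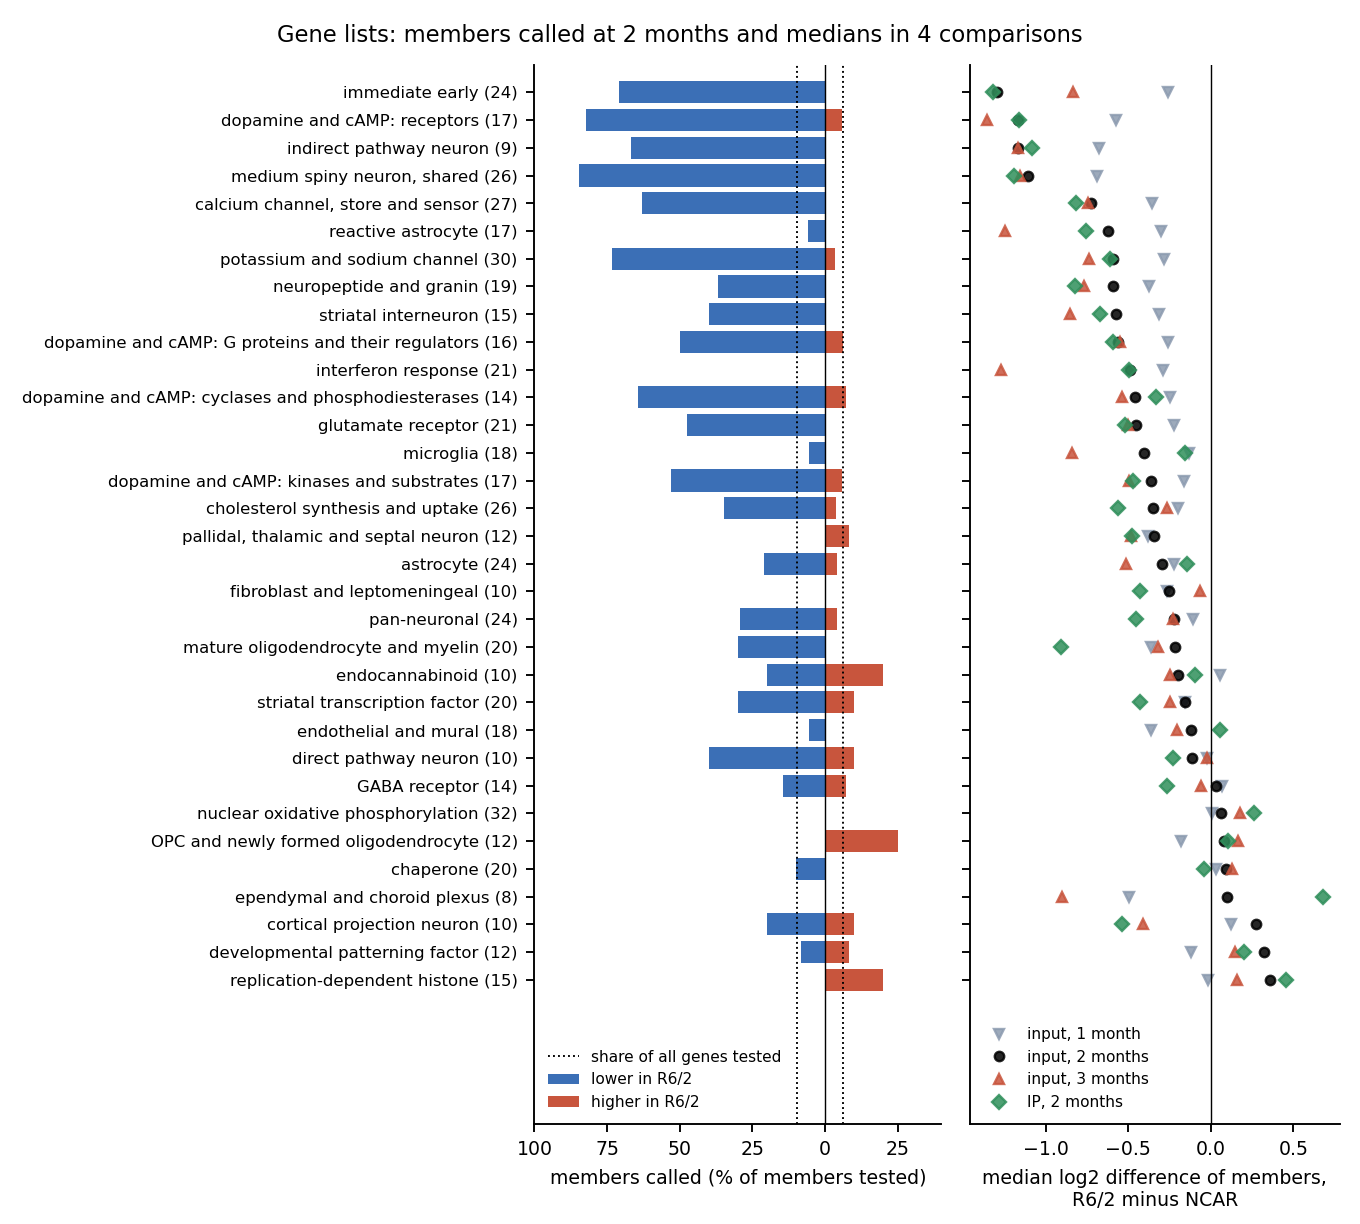
Left, percent of the tested members of each gene list (number in brackets) called lower (blue) or higher (red) in R6/2 at 2 months, with dotted lines at 9.66% and 6.33%, the shares of all genes. Right, the median log2 difference of the members in input at 1, 2 and 3 months and in IP at 2 months. Farthest to the left in input at 2 months lie immediate early, dopamine and cAMP receptor, indirect pathway and shared medium spiny neuron genes.

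Immediate early genes are switched on within minutes by synaptic activity, through calcium and cAMP signals that act on transcription factors already present. The upstream stretches of 4 of those lowest in R6/2 are shown for orientation, 250 bases before a RefSeq start on GRCm38.p6, 5′ to 3′ on the strand of the gene. Capitals mark TGACG or its reverse complement CGTCA, the core of the cAMP response element, and in Egr2 also a CArG box, the site of serum response factor. Where a gene had several RefSeq starts, the stretch with the most matches to these and the other sites counted below was chosen.
Egr2, chr10:67537619-67537868, plus strand: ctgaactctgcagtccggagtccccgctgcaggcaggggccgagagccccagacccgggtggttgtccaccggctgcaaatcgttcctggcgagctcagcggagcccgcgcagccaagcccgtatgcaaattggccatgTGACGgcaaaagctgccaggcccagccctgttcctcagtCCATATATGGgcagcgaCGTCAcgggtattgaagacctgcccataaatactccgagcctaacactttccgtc
Nr4a1, chr15:101266596-101266845, plus strand: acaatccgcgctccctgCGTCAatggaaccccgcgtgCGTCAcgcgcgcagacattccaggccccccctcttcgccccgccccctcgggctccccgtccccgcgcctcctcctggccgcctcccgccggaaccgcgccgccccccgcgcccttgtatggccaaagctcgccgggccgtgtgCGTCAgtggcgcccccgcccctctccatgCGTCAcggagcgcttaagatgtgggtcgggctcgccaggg
Nr4a3, chr4:48045055-48045304, plus strand: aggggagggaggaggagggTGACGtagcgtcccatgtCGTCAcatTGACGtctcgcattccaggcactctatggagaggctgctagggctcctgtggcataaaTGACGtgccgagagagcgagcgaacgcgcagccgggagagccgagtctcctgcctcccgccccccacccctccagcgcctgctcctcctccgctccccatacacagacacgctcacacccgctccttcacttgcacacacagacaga
Npas4, chr19:4989972-4990221, minus strand: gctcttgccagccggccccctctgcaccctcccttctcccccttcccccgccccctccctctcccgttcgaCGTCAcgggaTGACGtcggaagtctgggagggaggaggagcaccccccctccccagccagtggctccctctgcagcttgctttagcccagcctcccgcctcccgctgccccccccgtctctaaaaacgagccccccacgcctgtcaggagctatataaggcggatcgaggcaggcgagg

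Promoters in the table, 250 bases before to 50 after the start, could be matched for 18 of the 24 immediate early genes. A gene was counted when any of its promoters held the letters. TGACG on either strand was found in 14 of the 18 (77.8%), beside 33.7% of 11352 tested genes with a promoter in the table and 23.1% of all 27025 genes. It was found in 10 of the 12 matched genes that were lower in R6/2. The rest of the 14 were matched genes not called lower, and whether the letters go with the difference was not tested. The full element TGACGTCA, which holds TGACG on both strands, was in 2 of the 18 against 3.51% of tested genes, the CArG box in 1 against 1.58%, and the EGR site GCGTGGGCG in none against 1.35%. These are matches of letters and not sites shown to be bound.

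Of the 24 immediate early genes 17 were lower in R6/2 and none was higher, with a median of -1.29. Egr2, a zinc finger transcription factor gene, was at 40.9, 20.9, 21.6 and 22.0 CPM in NCAR and at 1.92, 1.39, 1.75 and 1.67 CPM in R6/2. NCAR replicate 1 was about as far above the other controls as those were above R6/2, and the difference was -3.91 (SE 0.23, adjusted p = 1.60e-05). Nr4a1, an orphan nuclear receptor gene, was at 240, 86.7, 111 and 111 CPM in NCAR and at 27.5, 14.5, 41.6 and 31.5 CPM in R6/2 (log2 difference -2.24, SE 0.36, adjusted p = 0.00295). Again NCAR replicate 1 was the highest by far, and all R6/2 libraries were below all NCAR libraries.

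Nr4a3 fell by 2.18 and the neuronal activity factor gene Npas4 by 2.15, with Npas4 at 39.0, 22.8, 11.7 and 19.0 CPM in NCAR and at 3.59, 5.52, 4.48 and 5.75 CPM in R6/2. Nptx2, a secreted pentraxin gene, fell by 2.11, Egr3 by 1.65, Fos by 1.65 and the synaptic scaffold gene Homer1 by 1.23. The summed level of the list was 1812 to 2710 CPM in NCAR, highest in replicate 1, and 788 to 910 CPM in R6/2. Without NCAR replicate 1 the count of lower genes was again 17, and it was 17 or 18 with any other library left out. The 7 that were not called were Fosb, Jun, Jund, Nr4a2, Ier2, Btg2 and Klf2.

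**Figure D4:**
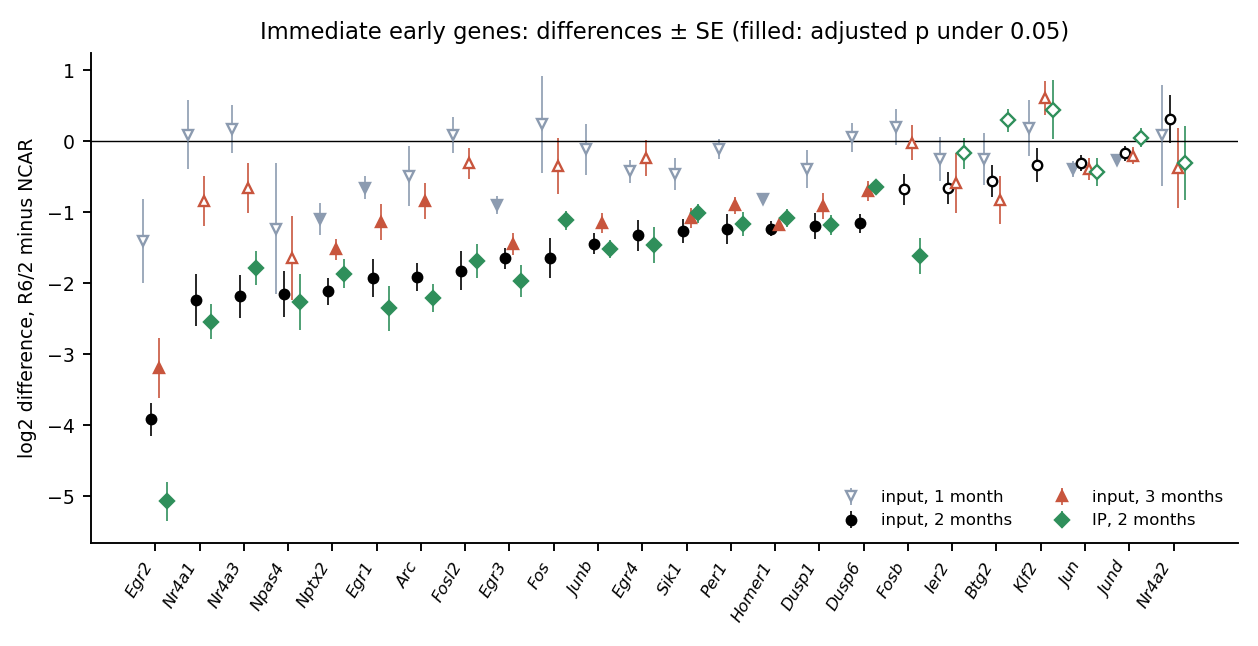
Log2 difference R6/2 minus NCAR with its SE for 24 immediate early genes in input at 1, 2 and 3 months and in IP at 2 months, ordered by the 2-month input value; filled symbols had an adjusted p under 0.05. At 2 months 17 in input and 18 in IP are filled below 0, against 11 at 3 months and 6 at 1 month. The shares of all genes called lower were 9.66%, 4.49%, 16.3% and 7.74%, in the same order.

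Of 24 astrocyte genes 5 were lower and 1 higher, beside 9.66% and 6.33% of all genes tested. The median of the list was -0.30. Slc1a2, the main glutamate transporter gene, was at 2495, 1973, 1988 and 1969 CPM in NCAR and at 1542, 1279, 1751 and 1207 CPM in R6/2, without overlap (log2 difference -0.55, SE 0.13, adjusted p = 0.0213). Its call was lost without NCAR replicate 1 (adjusted p = 0.0503), R6/2 replicate 2 (0.0586) or R6/2 replicate 4 (0.0598). The water channel gene Aqp4 fell by 0.54 and S100b rose by 0.47; without NCAR replicate 2 or 4 or R6/2 replicate 1 the adjusted p of S100b was 0.0586, 0.0540 and 0.0627. The count of lower astrocyte genes was 3 without NCAR replicate 2, R6/2 replicate 1 or R6/2 replicate 4, and 3 with read totals alone. Of 17 reactive astrocyte genes 1 was called, Cd44, which fell by 1.14. That count is near the share of all genes called lower, 9.66%.

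Myelin genes were lower in 6 of 20 cases and higher in none, beside 9.66% and 6.33% of all genes tested. Mal, a myelin membrane protein gene, was at 416, 402, 497 and 387 CPM in NCAR and at 206, 268, 253 and 251 CPM in R6/2, without overlap (log2 difference -0.80, SE 0.11, adjusted p = 0.00133). Cldn11 and Ugt8a, also genes of myelin, fell by 0.67 and 0.56. Genes of oligodendrocyte precursors and newly formed oligodendrocytes were higher in 3 of 12 cases and lower in none. Enpp6, a marker of newly formed cells, was at 11.8, 14.3, 12.1 and 9.79 CPM in NCAR and at 23.7, 20.4, 21.3 and 21.3 CPM in R6/2 (log2 difference 0.86, SE 0.13, adjusted p = 0.00214). Bmp4 rose by 1.01 and Tmem163 by 0.61; the latter was not called without NCAR replicate 2 or 4 (adjusted p = 0.0517 and 0.0503).

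Microglial genes were lower in 1 of 18 cases, Itgam (-0.55, adjusted p = 0.0347), whose ranges overlapped and whose call was lost when any 1 of 6 libraries was left out (adjusted p up to 0.0875), with read totals alone (0.107) and in a joint fit with 3 months (0.0950). Beside it, 9.66% of all genes tested were called lower and 6.33% higher, so that 1 of 18 is near the share called lower. The count of lower microglial genes was 0 to 3 with 1 library left out. It was 0 without NCAR replicate 4, R6/2 replicate 1 or R6/2 replicate 4, and 3 without NCAR replicate 1 or R6/2 replicate 2. None of 21 interferon response genes was called by limma, 0 had an unadjusted p under 0.05, and 4 were lower without NCAR replicate 1, the control library with the lowest summed interferon level. None of 32 nuclear oxidative phosphorylation genes was called by limma and 0 had an unadjusted p under 0.05, with a median of 0.06. Of 26 cholesterol synthesis and uptake genes 9 were lower and 1, the cholesterol exporter gene Abca1 (0.70), was higher. The synthesis genes Msmo1 and Hmgcs1 fell by 0.96 and 0.63, and Srebf2, the transcription factor gene that drives them, by 0.78. Of 15 replication-dependent histone genes 3 were higher, Hist1h3d (0.91), Hist1h2be (0.73) and Hist1h4d (0.61), and none was lower; such genes have near-identical copies among which reads can be split.

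The same genotype difference was set beside that at other ages, each with its own 4 NCAR and 4 R6/2 libraries. At 3 months 4318 of 15368 genes were called (28.1%) and at 1 month 1910 of 15490 (12.3%); the 1-month libraries carry another code in their labels, whose meaning is not given, so that age and whatever the code marks cannot be told apart there. Of the 1483 genes lower at 2 months, 1275 were also called lower at 3 months, which is 86.0% of the former and 50.8% of all genes lower at 3 months. Of the 972 higher genes 688 were called higher at 3 months, 70.8% of the former and 38.1% of the latter. None was called in the opposite direction at 3 months. At 1 month 852 of the lower genes (57.5%) and 269 of the higher genes (27.7%) were called the same way, and 1 gene was called the opposite way. The shares of all genes tested called lower and higher were 16.3% and 11.8% at 3 months and 7.74% and 4.59% at 1 month.

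The 1483 lower genes had a median log2 difference of -0.73 at 2 months, -0.75 at 3 months and -0.39 at 1 month. They were picked by their calls at 2 months, which favours larger sizes at that age. Of the 15 lowest genes 13 were called lower at 3 months and 11 at 1 month; Nr4a1 and Nr4a3 were called in neither. Of the 15 highest 14 were called higher at 3 months and 7 at 1 month. Col5a2 was the exception at 3 months, with a log2 difference of -0.60 there (adjusted p = 0.445) and -0.32 at 1 month (adjusted p = 0.456). Microglial genes were lower in 13 of 18 cases at 3 months and interferon response genes in 14 of 21, beside 1 and 0 at 2 months. Immediate early genes were lower in 11 of 24 cases at 3 months and 6 of 24 at 1 month, beside 17 at 2 months. Of all genes tested, 16.3% were called lower at 3 months, 7.74% at 1 month and 9.66% at 2 months. The shares called higher were 11.8%, 4.59% and 6.33%, in the same order.

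Whether the genotype difference itself differed between 2 and 3 months was tested with an interaction term over the 16 input libraries of those ages. No gene of 15570 was called by limma (0%), and 781 had an unadjusted p under 0.05, which is 5.02% of those tested. Neither the counts above nor single genes that pass at one age and not at the other therefore show a difference between ages. Of the immediate early genes 9 of 24 had an unadjusted p under 0.05 and 20 had a higher R6/2 minus NCAR difference at 3 than at 2 months, but the lowest adjusted p among them was 0.979.

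In IP RNA at 2 months, from RNA pulled down from the same kind of tissue, 842 of 15022 genes were called (5.61%). Of the 1483 genes lower in input 540 (36.4%) were called lower in IP, which is 80.1% of the genes lower in IP; of the 972 higher genes 82 (8.44%) were called higher in IP, 48.8% of those higher there. The lower genes had a median of -0.51 in IP and the higher genes 0.27. Both sets were picked by their calls in input, which favours larger sizes in input than in IP. Medium spiny neuron genes shared by both pathways were lower in IP in 24 of 26 cases and immediate early genes in 18 of 24. Of all genes tested in IP, 4.49% were called lower and 1.12% higher. The labels name neither the protein nor the cell type of the IP. The IP count ranged widely with the libraries used, from 429 without R6/2 replicate 4 to 2470 without NCAR replicate 2.

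The test of the difference between input and IP called 9 of 15593 genes (0.0577%), each with a lower value of the R6/2 minus NCAR difference in input than in IP. Trank1 (chr9:111311739-111395775, plus strand) went from 908 ± 85.4 to 386 ± 26.5 CPM in input and from 153 ± 16.3 to 141 ± 29.0 CPM in IP. Its loss was called in input (-1.23, SE 0.09) and not in IP (-0.14, SE 0.15, adjusted p = 0.578), and the difference of the differences was -1.09 (SE 0.18, adjusted p = 0.0382). Sorcs2, a sorting receptor gene of the VPS10 family, went from 156 ± 11.4 to 79.5 ± 3.97 CPM in input and from 189 ± 22.0 to 213 ± 29.4 CPM in IP (difference -1.15, SE 0.16, adjusted p = 0.0132). Flna, the filamin A gene of the actin skeleton, was called lower in input (-0.67) and higher in IP (0.84). Its loss in input was not called without NCAR replicate 2 or 4 (adjusted p = 0.0520 and 0.0548) or with read totals alone (0.0637).

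Abhd11os and Ddit4l were lower in both, by more in input: Abhd11os fell by 4.06 in input and 1.75 in IP, and Ddit4l by 2.90 and 1.13. Shisa2, Gpr153, Wwc1 and Kremen1 were lower in input, by 1.77, 1.05, 0.85 and 0.84, and had IP differences of 0.06, 0.06, 0.24 and 0.20 that were not called. The number of such genes ranged from 0 to 19 with 1 library left out. It was 0 without NCAR IP replicate 4, NCAR input replicate 1 or NCAR input replicate 4, and 19 without R6/2 IP replicate 1.

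**Figure D5:**
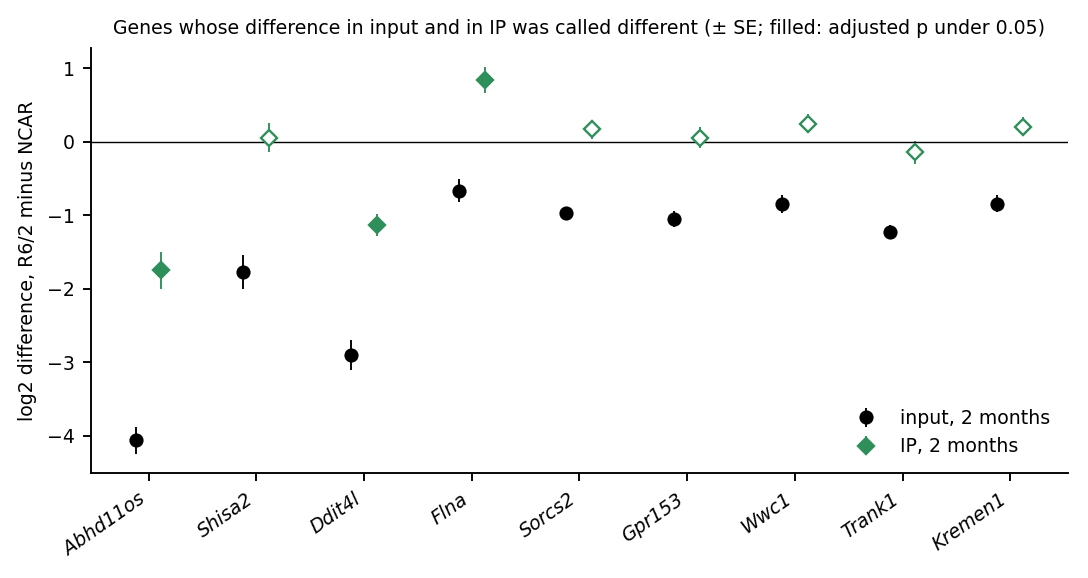
Log2 difference R6/2 minus NCAR with its SE in input (circles) and IP (diamonds) at 2 months for the 9 genes in which the 2 differences were called unequal; filled symbols had an adjusted p under 0.05 on their own. In all 9 the input value lies below the IP value, and 6 of the IP values are not called.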

How the data were processed

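Whole striatal RNA of 4 R6/2 and 4 NCAR libraries at 2 months was compared. The authors deposited 1 table of log2 CPM values per library; per the submitters' processing notes the tools were STAR, HTSeq, edgeR and limma with the mm10 genome, in an order and with settings not given in the sources used here. The deposited log2 values fall on steps of whole reads, and read counts were recovered from them (100% of values whole within 0.01). From these counts log2 CPM was recomputed with a prior of 0.25 reads and trimmed-mean scaling, for genes with 10 or more reads, at the median library size, in 4 or more libraries and 15 or more reads in all. Genotypes were compared with limma 3.58.1 in R 4.3.3 with an intensity trend, each comparison fitted alone, and p-values were adjusted by Benjamini-Hochberg over all genes tested; a gene was called at an adjusted p under 0.05. Interaction terms over 16 libraries tested age and RNA type. The procedure was tested on simulated data. CPM is not divided by gene length, so levels are compared within a gene. Depth was 31.03 to 51.19 M reads, and sampling noise was smaller than the spread between replicates in every pair.

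Genes were named by rule, Htt first. The rule took the 15 highest and 15 lowest log2 differences among called genes averaging 5 CPM or more whose genotypes did not overlap. It also took the 6 largest gains and losses in level, and up to 4 members of each list with the smallest p, called or not. The highest and lowest genes called in each interaction were taken too, and all genes called between input and IP are named. Genes named outside the rule (Gm12695, Abhd11, Rpl22, and members given because a count was small) were chosen after their values were seen. The gene lists and the rule were chosen with earlier results of these data known. Positions are from GENCODE vM21 and promoters from RefSeq, GRCm38.p6. Some genes that the rule names are not reported here.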

Additional observations from a re-analysis of the deposited data

Results flagged for a closer look

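Some single libraries lay apart from the other 3 of their group by Dixon's test, in 15 of 338 groups of 4 (4.44%); chance flags about 1 in 20. NCAR replicate 1 was apart in 8 of them. It was high for Egr2 (40.9 CPM), Nr4a1 (240.4 CPM), Atp2b1 (3329 CPM), Oprd1 (71.6 CPM) and Slc1a2 (2495 CPM), and for the summed levels of the shared medium spiny neuron genes (34747 CPM), the dopamine and cAMP receptor genes (6166 CPM) and the chaperone genes (5629 CPM). NCAR replicate 4 was high for Kcnab1 (775 CPM), Cd44 (11.3 CPM) and Rpl22, a ribosomal protein gene (483 CPM). R6/2 replicate 1 was low for Fam196b (19.3 CPM) and high for Irx5 (1.67 CPM), and R6/2 replicate 3 was high for Malat1 (6128 CPM) and low for Adora2a (121.5 CPM).

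The R6/2 minus NCAR difference was lower in input than in IP for 9 genes by the interaction test. The difference of differences was -2.32 for Abhd11os, -1.84 for Shisa2, -1.78 for Ddit4l, -1.51 for Flna, -1.15 for Sorcs2, -1.11 for Gpr153, -1.10 for Wwc1, -1.09 for Trank1 and -1.05 for Kremen1, on the log2 scale. Of 23 settings, counting the one reported, Abhd11os was called in 20, Sorcs2 in 18, Ddit4l in 13, Gpr153 and Kremen1 in 11, Flna and Wwc1 in 10, Trank1 in 9 and Shisa2 in 8.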

How the results depend on the processing

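No paired analysis was possible because the labels carry no replicate number and tie no library to another. The 2455 genes called in input at 2 months were 3880 with read totals alone and 5317 with a pan-neuronal covariate. Both were chosen after seeing the data, and that covariate, centred within each genotype, did not adjust the genotype difference. The higher genes were then 2823 and 2697, and the lower genes 2620 with the covariate. With 1 library left out 1616 to 2449 genes were called, 488 to 879 higher and 1111 to 1570 lower. The lowest of these counts of called genes was without R6/2 replicate 1, and the higher genes numbered 576 and 542 when NCAR replicate 2 or 4 was left out and 590 and 533 when R6/2 replicate 2 or 4 was. Scaling, filter, prior and voom settings gave 2173 to 2476 called, and a joint fit with 3 months gave 3050. Leaving out 1 library gave 1093 to 2029 called at 1 month, 2877 to 5172 at 3 months, 429 to 2470 in IP, 0 to 19 for input against IP and 0 for age. Causes of these shifts were not tested.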

Other observations

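Lists of other cell types that a striatal dissection can hold are read against 16.0% of all genes called. Of 10 cortical projection neuron genes 2 were lower, Nptx1 (-1.20) and Lamp5 (-0.36), and 1 was higher, Cux2 (0.72), all as log2 differences. The call of Lamp5 was lost when any 1 of 6 libraries was left out and with read totals alone (adjusted p up to 0.0967). Of 12 pallidal, thalamic and septal neuron genes 1 was higher, Trpc4 (0.46), whose call was lost when any 1 of 7 libraries was left out (adjusted p up to 0.122). Of 18 endothelial and mural genes 1 was lower, Tagln (-1.32), a smooth muscle gene. None of 10 fibroblast and none of 8 ependymal and choroid plexus genes was called by limma, and 0 of either had an unadjusted p under 0.05. Of 20 chaperone genes 2 were lower, Hspb8 (-0.70) and Hsph1 (-0.44), but with read totals alone 3 were higher and 1 lower. The call of Hsph1 was lost when any 1 of 5 libraries was left out and with read totals alone (adjusted p up to 0.0938). Of 12 developmental patterning factor genes 1 was lower, Onecut2 (-0.71), and 1 was higher, Irx5, at a mean of 0.268 CPM in NCAR and 1.21 CPM in R6/2. Onecut2 was not called without NCAR replicate 4 (adjusted p = 0.0548), nor Irx5 without R6/2 replicate 1 (0.0515).

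The median difference of the direct pathway, endothelial and striatal transcription factor lists changed sign with read totals alone, from -0.11, -0.12 and -0.16 to 0.05, 0.04 and 0.01. With read totals alone 5 histone, 4 kinase and substrate, 3 G protein and 3 cholesterol genes were higher, as was 1 oxidative phosphorylation gene. Rpl22, chosen after its values were seen, was at 272, 280, 286 and 483 CPM in NCAR and at 170, 153, 131 and 165 CPM in R6/2, without overlap (log2 difference -1.06, limma, adjusted p = 0.00383). Both groups had received a virus whose cargo the labels do not name. Whether Rpl22 reads come from the mouse gene alone was not tested.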
